A study of Mus musculus with 17 samples.

Results

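The apolipoprotein L family is described here through 8 mouse genes, Apol6, Apol7a, Apol7c, Apol8, Apol9a, Apol9b, Apol10a and Apol10b, in colorectal tumors of mice with and without the kinase Tyk2. The genes were taken by name, with earlier results of these data known, and they are 8 of the 55421 genes in the count tables. The study that reported these data had already named Apol6, Apol9 and Apol10 among genes lower with germline and higher with epithelial deletion of Tyk2. Tumors were induced in C57BL/6 mice with the mutagen azoxymethane and cycles of dextran sulfate sodium, which inflames the colon, and RNA was sequenced from macrodissected tumors in 17 libraries. Tyk2KO mice (3 libraries) carried a germline deletion of Tyk2 in every cell, made from a floxed allele with a CMV-cre deleter, and were set against Tyk2wt littermates (3 libraries). Tyk2DIEC mice (4 libraries) were homozygous for the floxed Tyk2 allele and carried Villin-cre, which is driven by an intestinal epithelial promoter, and were set against cre-negative Tyk2fl mice (7 libraries) with the same floxed alleles. The sources speak of pooled tumor samples and do not tell whether each library came from a separate mouse, so the p-values measure the spread between these libraries.

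Apolipoprotein L proteins bind lipids and membranes, and many of the genes are switched on by interferons. Tyk2 is a Janus kinase that sits on the receptor for type I interferons, whose signal reaches the interferon-stimulated response element (ISRE) in promoters, whereas the γ-activated site (GAS) serves the response to interferon γ. In humans APOL1 lyses trypanosomes, APOL3 attacks bacteria in the cytosol of interferon γ-treated cells and APOL6 is known as a pro-apoptotic protein, and in mice Apol9a and Apol9b act against Theiler's virus and Apol7c serves antigen cross-presentation by dendritic cells.

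The 8 genes lie on chromosome 15 (GRCm38, GENCODE M21 annotation) among 13 Apol genes that span 712 kb. Apol6 (77044729 to 77057106, plus strand) stands at one end, with Rbfox2 between it and the rest. Apol7a (77388219 to 77399110, minus strand), Apol9a (77403789 to 77411135, minus), Apol10a (77477047 to 77491069, plus), Apol7c (77524852 to 77533316, minus), Apol10b (77583819 to 77596125, minus), Apol9b (77729039 to 77736382, plus) and Apol8 (77747798 to 77757003, minus) follow. The coding sequences of Apol9a and Apol9b, both of 930 bases, were 98.5% identical, and those of Apol7a and Apol7c were 91.1% identical over the aligned bases. Identity between Apol10a and Apol10b was 78.2%, within the 71.2% to 78.4% seen between members of different subgroups.

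Promoters are shown because the members differed in exact matches to the letters of elements that interferon-activated factors bind. They are RefSeq sequences of GRCm38.p6 that lie before the start of transcription in RefSeq, with matches to the ISRE, searched on both strands as GAAA, any 2 bases and GAAA, in capitals. A match to the GAS, searched as TTCNNNGAA, was found in 1 of the 7 members with a sequence, Apol10a. The promoter of Apol9b (chr15:77728822-77729050, plus strand) is shown up to the end of its ISRE matches, and those of Apol7c (chr15:77533316-77533565), Apol10b (chr15:77596126-77596375) and Apol7a (chr15:77399111-77399360), all on the minus strand, as the whole 250 bases before the start. RefSeq starts Apol9b at 77729072, beyond the GENCODE start given above, so the last 12 bases shown, within the ISRE matches, lie inside the GENCODE gene, as does 1 base of the Apol7c stretch.
Apol9b: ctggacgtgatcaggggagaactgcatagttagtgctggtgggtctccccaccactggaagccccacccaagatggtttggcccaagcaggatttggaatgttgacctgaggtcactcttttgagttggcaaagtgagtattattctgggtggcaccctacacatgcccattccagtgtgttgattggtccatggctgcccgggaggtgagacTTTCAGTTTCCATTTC
Apol7c: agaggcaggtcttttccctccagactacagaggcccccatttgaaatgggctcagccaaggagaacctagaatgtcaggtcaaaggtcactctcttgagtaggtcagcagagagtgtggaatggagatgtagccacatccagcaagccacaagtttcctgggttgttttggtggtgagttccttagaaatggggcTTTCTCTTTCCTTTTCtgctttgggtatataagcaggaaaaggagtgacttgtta
Apol10b: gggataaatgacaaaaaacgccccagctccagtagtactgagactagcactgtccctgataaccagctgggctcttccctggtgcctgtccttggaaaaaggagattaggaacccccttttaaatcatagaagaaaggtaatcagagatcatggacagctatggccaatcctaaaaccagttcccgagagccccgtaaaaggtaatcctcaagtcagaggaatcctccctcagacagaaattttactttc
Apol7a: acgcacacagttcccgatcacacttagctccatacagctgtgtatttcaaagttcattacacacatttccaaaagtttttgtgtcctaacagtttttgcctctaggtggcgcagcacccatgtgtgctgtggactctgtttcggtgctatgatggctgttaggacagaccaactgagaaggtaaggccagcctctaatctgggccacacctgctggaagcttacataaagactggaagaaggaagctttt

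In Apol9b the matches TTTCAGTTTC and TTTCCATTTC overlap by 4 bases, and the last 207 bases shown recur without a mismatch before Apol9a (chr15:77411124-77411330, minus strand). Apol7c holds an overlapping pair in the same arrangement, TTTCTCTTTC and TTTCCTTTTC, of which the first begins 55 bases before the start. Apol10a holds a single match, TTTCACTTTC, 51 bases before its start. In all, 4 of 7 members with a promoter sequence (57.1%) had an ISRE match within 250 bases, against 3.46% of the 27025 genes in the promoter table, and 1 of 7 had a GAS match, against 8.13%. Of the listed interferon response genes, 21 stimulated by type I interferons and 18 induced by interferon γ had a promoter sequence. An ISRE match was held by 52.4% and 66.7% of these, and a GAS match by 14.3% and 44.4%. Apol10b, Apol7a and Apol8 had no such letters in this window. A match is a description of letters, and binding was not measured.

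Gene totals were 19922606 to 21707373 counts in Tyk2KO, 19789347 to 21318077 in Tyk2wt, 19129696 to 20334948 in Tyk2DIEC and 29777763 to 35427965 in Tyk2fl libraries. Tyk2fl replicates 1 to 3 stood apart by 40656 or more counts of Xist, the RNA of the inactive X chromosome, while the other 14 libraries had at most 106. Members are therefore also given without these 3 libraries. Reads over the whole Tyk2 gene were not lower with the deletion (log2 fold change 0.05 ± 0.05 (SE) in Tyk2KO and 0.10 ± 0.07 in Tyk2DIEC tumors, edgeR adjusted p = 0.645 and 0.321), and since they sum all exons they do not check the loss of exon 3, which holds the start codon. The study that reported these data found exon 3 reads missing from Tyk2KO tumors and from most, but not all, Tyk2DIEC tumors. Colon epithelium was well represented, with 8 epithelial marker genes (Epcam, Cdh1, keratins, Vil1, Cdx2) summing to between 6933 and 11284 CPM (counts per 1000000, scaled by TMM) across the libraries.

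The members were weakly expressed. Together they held 14.5 to 19.4 CPM in Tyk2KO tumors, against 30.2 to 51.4 CPM in Tyk2wt tumors, and 29.9 to 42.2 CPM in Tyk2DIEC tumors, against 12.7 to 22.9 CPM in Tyk2fl tumors. The groups did not overlap in either comparison, and the summed level moved in opposite directions. In a bulk library fewer cells of a type and less RNA per cell cannot be told apart.

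Loss of Tyk2 in all cells went with lower levels of most of the family. Apol9a, Apol9b, Apol10b and Apol6 were lower in Tyk2KO than in Tyk2wt tumors by 2.97-fold to 9.0-fold, and Apol7a was lower by 1.73-fold. Apol7c and Apol10a did not pass the test, and Apol8 was too low to be tested. A change was called at a Benjamini-Hochberg adjusted p under 0.05 in edgeR's quasi-likelihood F test and over 2-fold, which held for 4 of 7 tested members on the lower side, against 1.21% of all 16179 tested genes. By the adjusted p alone 5 of 7 members were lower, against 2.13% of tested genes. The median log2 fold change of the 7 members was -1.57, while the median of all tested genes was 0.0040.

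The antiviral genes Apol9a and Apol9b were both called lower in this comparison. Apol9a was at 1.16, 0.546 and 0.893 CPM in the Tyk2KO libraries, against 4.79, 7.59 and 11.2 CPM in the Tyk2wt libraries. The highest Tyk2KO value was far below the lowest Tyk2wt value, and Tyk2wt replicate 3 was the highest of all. Its log2 fold change was -3.17 ± 0.38 (SE, adjusted p = 0.00695). Apol9b was at 1.06, 0.347 and 0.517 CPM in Tyk2KO tumors, against 2.54, 3.69 and 6.40 CPM in Tyk2wt tumors. Here too the groups were apart, with Tyk2KO replicate 1 the highest of its group as for Apol9a. The log2 fold change was -2.70 ± 0.47 (adjusted p = 0.0289), and it passed no longer without Tyk2wt replicate 3 (adjusted p = 0.0897), Tyk2KO replicate 2 (0.116) or Tyk2KO replicate 3 (0.0715).

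Apol10b was at 0.832, 0.645 and 0.752 CPM in Tyk2KO tumors, against 3.30, 3.85 and 6.64 CPM in Tyk2wt tumors. Its Tyk2KO libraries lay close together and far below all Tyk2wt libraries, with a log2 fold change of -2.62 ± 0.33 (adjusted p = 0.00786). For Apol6, the gene set apart from the cluster, the levels were 1.66, 1.54 and 1.69 CPM in Tyk2KO tumors, against 3.78, 4.98 and 5.77 CPM in Tyk2wt tumors. The groups did not overlap, and the log2 fold change was -1.57 ± 0.22 (adjusted p = 0.0120). Mb, the myoglobin gene that overlaps Apol6 on the other strand, had at most 8 counts in any library. Without Tyk2KO replicate 2 Apol6 missed the threshold (adjusted p = 0.0653), and the called members were then 2, Apol9a and Apol10b, which passed without any single library.

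Apol7a had the highest counts of the family and the smallest of the changes that passed. It was at 9.43, 9.43 and 9.49 CPM in Tyk2KO tumors, against 13.3, 18 and 17.6 CPM in Tyk2wt tumors. The Tyk2KO libraries were nearly identical and below every Tyk2wt library. The log2 fold change was -0.79 ± 0.13 (adjusted p = 0.0259), which is under the 2-fold minimum. Without Tyk2wt replicate 3 or any Tyk2KO library the change lay between -0.73 and -0.79, but its adjusted p rose above 0.05 (0.111 without Tyk2wt replicate 3, and 0.0772, 0.118 and 0.0609 without Tyk2KO replicates 1, 2 and 3). In all, 5 of 7 tested members had non-overlapping lower values in Tyk2KO tumors, against 14% of tested genes.

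Apol7c and Apol10a showed no such separation. Apol7c was at 4.11, 1.49 and 1.93 CPM in Tyk2KO tumors, against 1.82, 3.49 and 2.79 CPM in Tyk2wt tumors, with the highest value in Tyk2KO replicate 1. Its log2 fold change was -0.10 ± 0.41 (adjusted p = 0.905). Its promoter holds a pair of ISRE matches arranged as in Apol9b. Apol10a was at 1.02, 0.347 and 0.188 CPM in Tyk2KO tumors, against 0.527, 0.410 and 0.770 CPM in Tyk2wt tumors, and its log2 fold change was -0.14 ± 0.58 (adjusted p = 0.912). Both signs turned when single libraries were left out, so neither gene had a direction. Apol8, with 3 to 4 counts per Tyk2KO library and 3 to 9 per Tyk2wt library, was below the low-count filter.

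**Figure D1:**
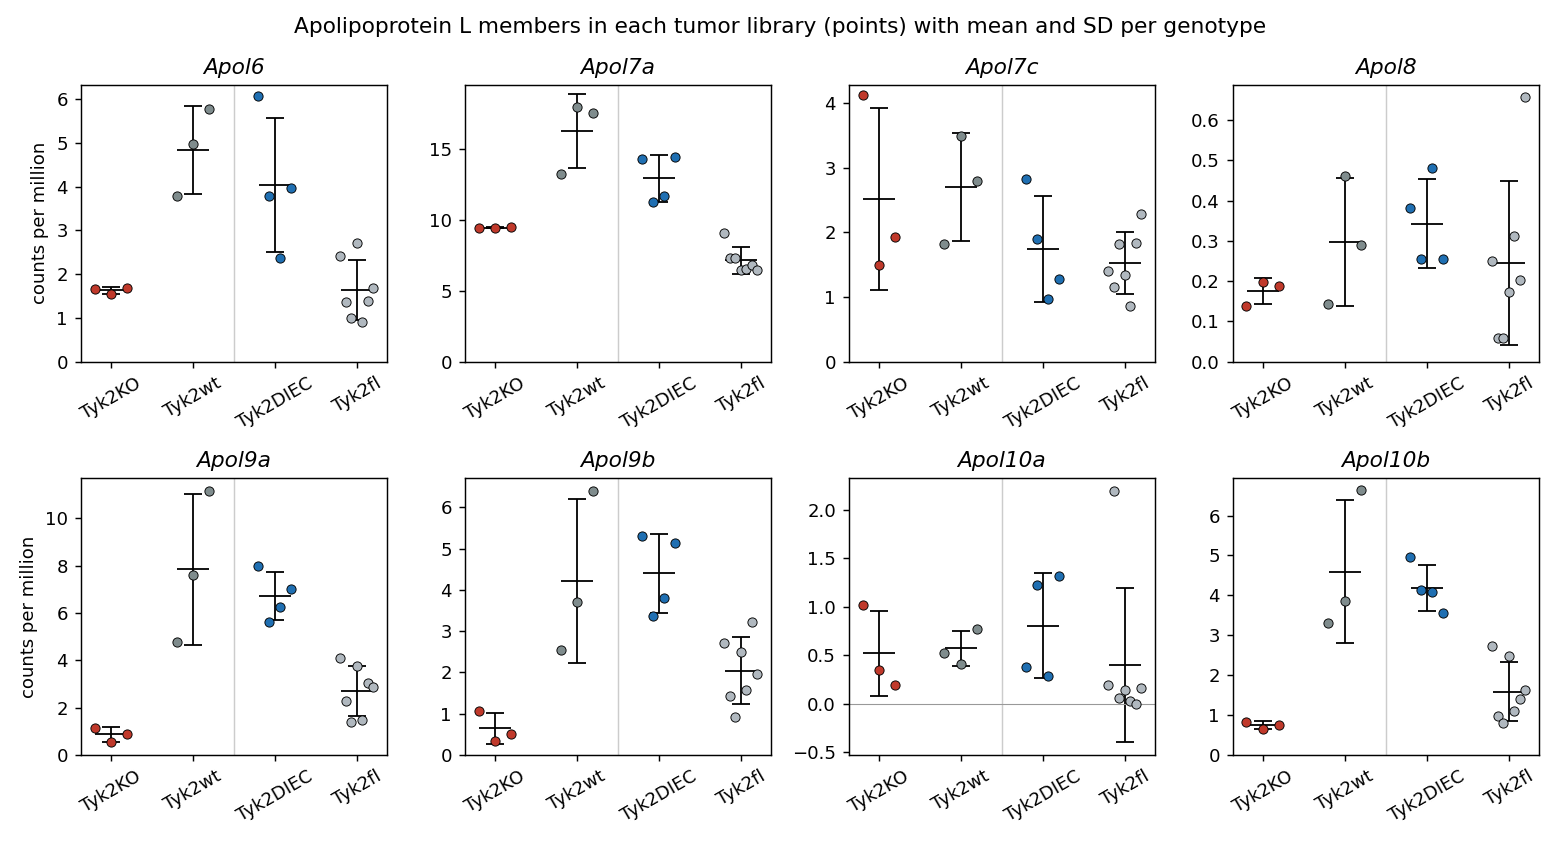
CPM of each of the 8 members (1 panel per gene, each with its own axis from 0, or below it where the SD bar reaches there), with a point per library and the mean ± SD per genotype (n = 3 Tyk2KO, 3 Tyk2wt, 4 Tyk2DIEC and 7 Tyk2fl). Apol6, Apol7a, Apol9a, Apol9b and Apol10b had all Tyk2KO points below all Tyk2wt points, and the single high Tyk2fl point of Apol10a is replicate 2 at 2.20 CPM.

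Deletion of Tyk2 in the epithelium went with higher levels of Apol6, Apol7a, Apol9a, Apol9b and Apol10b. Apol10b, Apol9a, Apol6 and Apol9b were 2.15-fold to 2.63-fold higher in Tyk2DIEC than in Tyk2fl tumors, and Apol7a was 1.81-fold higher. Apol7c, Apol8 and Apol10a did not pass. By adjusted p and fold, 4 of 8 tested members were higher, against 1.48% of all 17668 tested genes. By the adjusted p alone 5 of 8 were higher, against 10.2% of tested genes. The members' median log2 fold change was 1.05, while the median of all tested genes was -0.0031.

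Apol9a was at 7.98, 5.62, 6.26 and 7.01 CPM in the Tyk2DIEC libraries, against a lowest of 1.41, a median of 2.85 and a highest of 4.10 CPM in the Tyk2fl libraries. No Tyk2fl library reached the lowest Tyk2DIEC library. The log2 fold change was 1.31 ± 0.27 (SE, adjusted p = 0.00768), and 1.25 (adjusted p = 0.0109) without Tyk2fl replicates 1 to 3. Apol9b was at 5.30, 3.37, 3.80 and 5.13 CPM in Tyk2DIEC tumors, against a lowest of 0.927, a median of 1.97 and a highest of 3.22 CPM in Tyk2fl tumors. The groups were apart by a narrow gap between Tyk2DIEC replicate 2 and Tyk2fl replicate 6, and the log2 fold change was 1.10 ± 0.29 (adjusted p = 0.0203). Without Tyk2fl replicates 1 to 3 it was 0.91 (adjusted p = 0.0320), which is under 2-fold, and without Tyk2DIEC replicate 1 or 4 the adjusted p was 0.0568 or 0.0609. Leaving out Tyk2fl replicate 3 alone also took Apol9b under 2-fold (0.98, adjusted p = 0.0182), which left 3 called members.

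Apol10b was at 4.97, 4.13, 4.09 and 3.55 CPM in Tyk2DIEC tumors, against a lowest of 0.807, a median of 1.39 and a highest of 2.73 CPM in Tyk2fl tumors. All Tyk2DIEC libraries were above all Tyk2fl libraries. Its log2 fold change of 1.40 ± 0.31 (adjusted p = 0.00935) lay within its SE of those of Apol9a and Apol6, and it was 1.33 (adjusted p = 0.00790) without Tyk2fl replicates 1 to 3. Apol7a was at 14.3, 11.3, 11.7 and 14.5 CPM in Tyk2DIEC tumors, against a lowest of 6.47, a median of 6.82 and a highest of 9.11 CPM in Tyk2fl tumors. The groups did not overlap, and Tyk2fl replicate 1 stood above the other Tyk2fl libraries. The log2 fold change of Apol7a was 0.86 ± 0.12 (adjusted p = 0.00132), the smallest adjusted p of the family in this comparison, and it was 0.96 (adjusted p = 0.00207) without Tyk2fl replicates 1 to 3.

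Apol6 was at 6.07, 3.78, 2.36 and 3.96 CPM in Tyk2DIEC tumors, against a lowest of 0.909, a median of 1.39 and a highest of 2.70 CPM in Tyk2fl tumors. Tyk2DIEC replicate 3 fell within the range of the Tyk2fl libraries, so the groups overlapped. The log2 fold change was 1.30 ± 0.32 (adjusted p = 0.0155), and it was 1.25 (adjusted p = 0.0357) without Tyk2fl replicates 1 to 3. Without Tyk2DIEC replicate 1 the adjusted p was 0.0565, and Apol9b was then also lost, which left 2 called members, Apol9a and Apol10b. In total 4 of 8 members had non-overlapping higher values in Tyk2DIEC tumors, against 7.73% of tested genes.

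The remaining members were low or variable. Apol7c was at 2.82, 1.89, 0.962 and 1.27 CPM in Tyk2DIEC tumors, against a lowest of 0.852, a median of 1.39 and a highest of 2.28 CPM in Tyk2fl tumors (log2 fold change 0.19 ± 0.32, adjusted p = 0.719). Apol8 was at 0.382, 0.255, 0.481 and 0.254 CPM in Tyk2DIEC tumors, against a lowest of 0.0593, a median of 0.204 and a highest of 0.657 CPM in Tyk2fl tumors (log2 fold change 0.49 ± 0.56, adjusted p = 0.578). For Apol7c and Apol8 the groups overlapped almost fully. Apol10a was at 0.382, 1.23, 0.289 and 1.32 CPM in Tyk2DIEC tumors, against a lowest of 0, a median of 0.145 and a highest of 2.20 CPM in Tyk2fl tumors. The highest value belonged to Tyk2fl replicate 2 with 74 counts, whereas the other 6 Tyk2fl libraries had at most 7 counts and lay below every Tyk2DIEC library. With all libraries the log2 fold change of Apol10a was 1.00 ± 1.01 (adjusted p = 0.521) in edgeR and 2.33 (adjusted p = 0.0947) in limma voom, so its size depended on the method, and without Tyk2fl replicate 2 the gene was below the low-count filter.

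**Figure D2:**
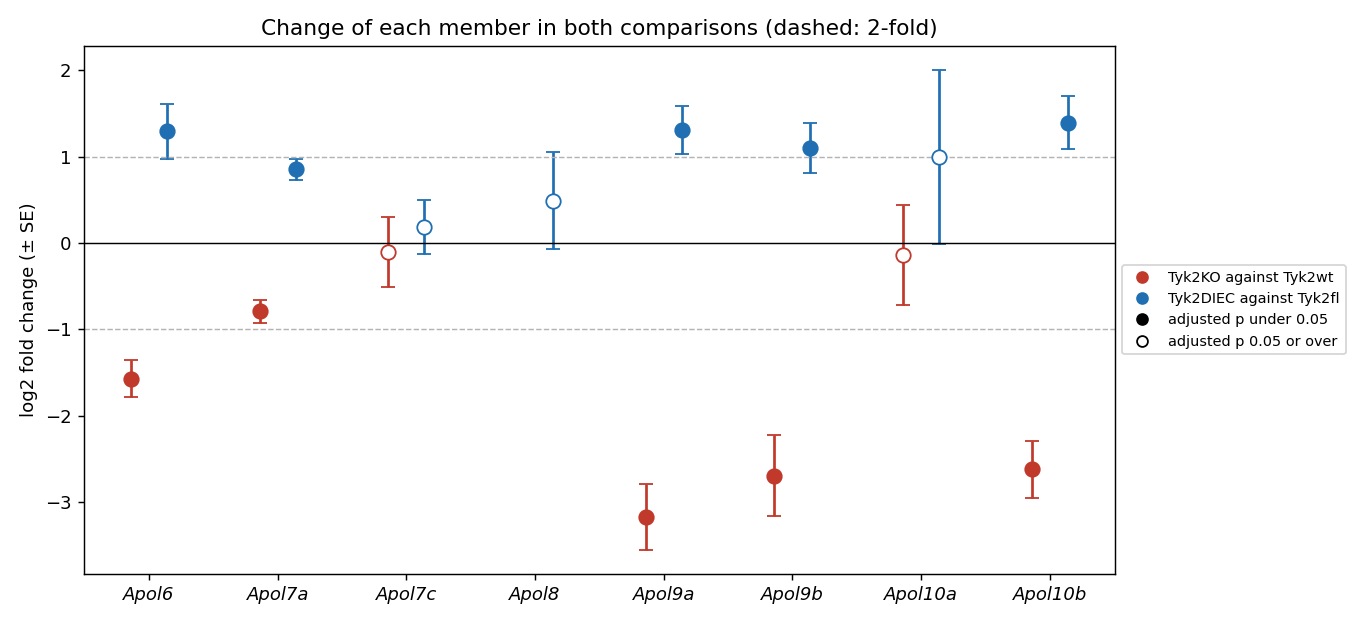
Log2 fold change ± SE of each tested member in Tyk2KO against Tyk2wt tumors (red) and in Tyk2DIEC against Tyk2fl tumors (blue), filled where the adjusted p was under 0.05. Apol9a had the lowest value in the germline comparison (-3.17) and Apol10b the highest in the epithelial one (1.40), while Apol7c stayed near 0 in both and Apol8 was tested in the second only.

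The changes of both deletions were compared as a contrast over all 17 libraries, the change in Tyk2KO minus the change in Tyk2DIEC tumors. It was below 0 at an adjusted p under 0.05 for 5 of 7 tested members, against 5.23% of 17252 tested genes. The difference on the log2 scale was -4.48 ± 0.52 for Apol9a (SE, adjusted p = 8.89e-05), -4.02 ± 0.52 for Apol10b (0.000212), -3.80 ± 0.58 for Apol9b (0.000881), -2.87 ± 0.49 for Apol6 (0.00201) and -1.64 ± 0.19 for Apol7a (8.97e-05). All 5 passed without any single library. Apol7c (-0.29 ± 0.55, adjusted p = 0.799) and Apol10a (-1.13 ± 1.56, adjusted p = 0.714) did not pass. Without Tyk2fl replicate 2 the difference for Apol10a was -3.08 (adjusted p = 0.0676).

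By mean level, Tyk2wt and Tyk2DIEC tumors were the upper 2 of the 4 genotypes for Apol6, Apol7a, Apol9a, Apol9b and Apol10b. This was also so for Apol8 and Apol10a at their low counts, while for Apol7c Tyk2wt and Tyk2KO tumors were the upper 2. In the fit over all libraries the neighbours Tyk2DIEC and Tyk2wt, or Tyk2wt and Tyk2DIEC, did not differ beyond their spread for any tested member in which they were neighbours (adjusted p = 0.178 to 0.946). Below them, Apol9a was higher in Tyk2DIEC than in Tyk2fl tumors (1.31 ± 0.28 on the log2 scale, adjusted p = 0.00373) and Tyk2fl tumors were above Tyk2KO tumors (1.64 ± 0.39, adjusted p = 0.0134). For Apol9b Tyk2fl tumors were likewise above Tyk2KO tumors (1.65 ± 0.44, adjusted p = 0.0225), whereas for Apol10b this step missed the threshold (1.09 ± 0.38, adjusted p = 0.0703). Apol7a took the opposite order at the lower end, with Tyk2KO above Tyk2fl tumors (0.40 ± 0.13, adjusted p = 0.0479), and for Apol6 Tyk2KO and Tyk2fl tumors were neighbours with a difference of -0.0074 ± 0.34 (adjusted p = 0.991). Among controls, Tyk2wt was above Tyk2fl for Apol6 (1.56 ± 0.30, adjusted p = 0.00512) and Apol7a (1.19 ± 0.12, adjusted p = 5.43e-05). It was also above for Apol9a (1.53 ± 0.30, adjusted p = 0.00541) and Apol10b (1.53 ± 0.31, adjusted p = 0.00609). Apol7c, Apol9b and Apol10a did not pass (adjusted p = 0.0577 to 0.786), and 12.9% of 17252 tested genes passed this contrast. Steps between Tyk2KO or Tyk2wt and Tyk2DIEC or Tyk2fl tumors cross the 2 experiments and cannot be told apart from differences between them.

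The make-up of the family in Tyk2KO tumors differed from that in Tyk2wt tumors. Apol7a held 58.0% ± 8.5 of the members' counts in Tyk2KO tumors (SD, n = 3) and 40.2% ± 5.3 in Tyk2wt tumors (n = 3), and 37.0% ± 2.6 in Tyk2DIEC tumors (n = 4) and 42.4% ± 7.9 in Tyk2fl tumors (n = 7). Apol9a held 5.14% ± 1.2 of them in Tyk2KO and 18.5% ± 3.0 in Tyk2wt tumors, and 19.1% ± 1.3 in Tyk2DIEC and 15.1% ± 3.3 in Tyk2fl tumors. Libraries of Tyk2KO and Tyk2wt tumors did not overlap in either share, those of Tyk2DIEC and Tyk2fl tumors did in both, and the shares were not tested. Per kb of its longest protein-coding transcript, Apol7a was the highest member in every genotype, at 3.95 ± 0.015 CPM per kb in Tyk2KO, 6.81 ± 1.1 in Tyk2wt, 5.41 ± 0.70 in Tyk2DIEC and 2.99 ± 0.39 in Tyk2fl tumors. Apol9a ranked 2 in Tyk2wt tumors with 5.13 ± 2.1 CPM per kb, but ranked 4 in Tyk2KO tumors with 0.565 ± 0.20 CPM per kb, where Apol7c and Apol6 stood above it. The counts cover all annotated exons, 5.953 kb for Apol9a and 4.498 kb for Apol6, against 1.53 kb and 2.314 kb in these transcripts. The levels per kb and ranks of both genes therefore depend on the length used.

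These levels rest on reads that can be placed. Of the 75-base windows of the longest coding transcript, the length of the reads, 52.1% of Apol9a and 58.4% of Apol9b occurred in no other gene's transcripts, while the share was 85.2% to 100% for the other members. When the levels per kb were scaled to such windows, Apol9a came to 9.84 ± 4.0 in Tyk2wt tumors and passed Apol7a at 7.40 ± 1.2, while in Tyk2KO tumors Apol9a stayed at 1.08 ± 0.38 and Apol7a at 4.30 ± 0.016. The rank of Apol9a and Apol7a thus depended on this scaling. It also rests on the transcript chosen, since 86.2% of windows over all annotated Apol9a transcripts occurred in no other gene. With Apol9a and Apol9b summed into a single row, the log2 fold change was -2.99 in Tyk2KO (adjusted p = 0.0111) and 1.22 in Tyk2DIEC tumors (adjusted p = 0.00883). The sum sets aside how counted reads were divided between both genes, but it adds no read that was counted for neither. The ratio of Apol9a to Apol9b counts was 1.09 to 1.73 in Tyk2KO and 1.74 to 2.06 in Tyk2wt tumors, and 1.37 to 1.67 in Tyk2DIEC and 0.945 to 1.60 in Tyk2fl tumors.

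Estimated changes differed between neighbours in the cluster, which were not tested against each other. Apol9a and Apol10a, neighbours among the members, had log2 fold changes of -3.17 ± 0.38 and -0.14 ± 0.58 in Tyk2KO tumors. Apol7c (-0.10 ± 0.41) lies between Apol10a and Apol10b (-2.62 ± 0.33). Apol10a had only 4 to 22 counts per Tyk2KO library. Rbfox2, an RNA-binding splicing regulator whose gene separates Apol6 from the rest, was at 0.21 ± 0.06 in Tyk2KO (adjusted p = 0.120) and 0.29 ± 0.06 in Tyk2DIEC tumors (adjusted p = 0.00883). Myh9, the non-muscle myosin heavy chain gene beyond Apol8, was at 0.02 ± 0.10 (adjusted p = 0.910) and 0.28 ± 0.08 (adjusted p = 0.0256). Of 12 tested genes beside the cluster only Ncf4 passed the adjusted p in Tyk2KO tumors (-0.72 ± 0.14, adjusted p = 0.0405), and 3 passed it in Tyk2DIEC tumors, all of them under 2-fold. Apart from Rbfox2 these genes all lie beyond Apol8, and none before Apol6 was listed.

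**Figure D3:**
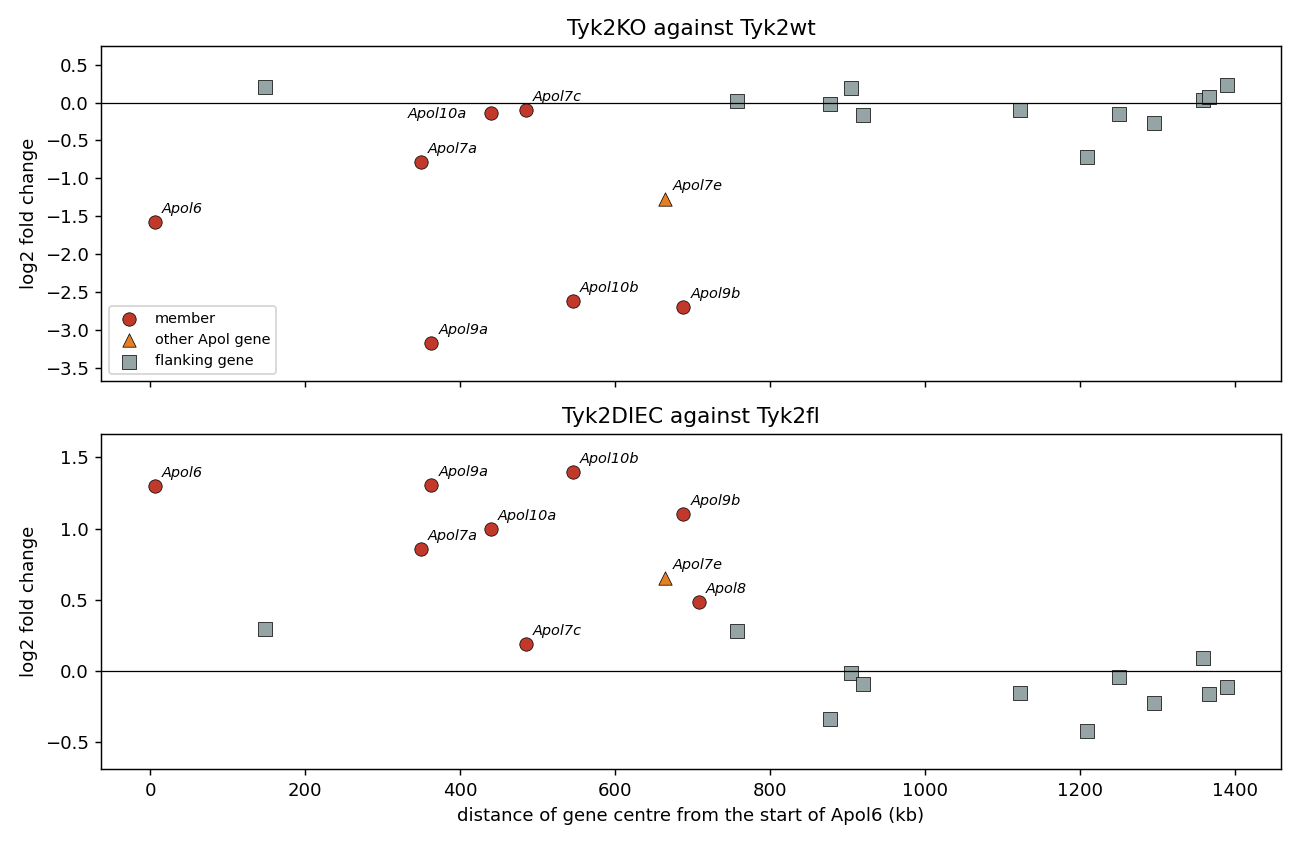
Log2 fold change of members (circles), the other tested Apol gene, Apol7e (triangle), and genes beside the cluster (squares) by distance of the gene's centre from the start of Apol6 in kb, for Tyk2KO against Tyk2wt (upper panel) and Tyk2DIEC against Tyk2fl tumors (lower panel). Squares lie between -0.72 and 0.24 in the upper panel and between -0.42 and 0.29 in the lower panel, and the members reach -3.17 and 1.40.

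Of the other 5 Apol genes only Apol7e could be tested. Its log2 fold change was -1.28 ± 0.34 in Tyk2KO (adjusted p = 0.0873) and 0.65 ± 0.34 in Tyk2DIEC tumors (adjusted p = 0.196), and the difference between both was -1.93 (adjusted p = 0.0405). A list of other apolipoprotein genes, most of which encode lipid carriers of the plasma, was read beside the family. Among the 9 tested in Tyk2KO tumors the smallest adjusted p was 0.201, for Apobr, the receptor of apolipoprotein B48. In Tyk2DIEC tumors 2 of 12 passed the adjusted p, Apobr at 0.70 ± 0.14 and Clu at -0.92 ± 0.28, both under 2-fold. Apob was at 1.37 ± 0.53 there (adjusted p = 0.0884). The difference between both changes passed for 1 of 12, Apobr, at -1.10 ± 0.23 (adjusted p = 0.00750), below 0 like that of the members. The lists were not tested against each other.

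Most listed interferon response genes fell in Tyk2KO tumors, and some rose in Tyk2DIEC tumors. In the list of 30 genes stimulated by type I interferons, 27 fell in Tyk2KO tumors (median log2 fold change -1.94) and 7 rose in Tyk2DIEC tumors (median 0.73). In the list of 25 genes induced by interferon γ, 24 fell in Tyk2KO tumors (median -2.36) and 13 rose in Tyk2DIEC tumors (median 1.07). These counts need the adjusted p and 2-fold, and by the adjusted p alone 23 and 21 of the lists were higher in Tyk2DIEC tumors. Ddx60, an antiviral helicase, was at 1.56 ± 0.20 in Tyk2DIEC tumors (adjusted p = 0.000774), and B2m, the light chain of MHC class I, at -2.52 ± 0.14 in Tyk2KO tumors (adjusted p = 0.000846). Among 19 genes of interferon signalling, 7 were lower in Tyk2KO tumors by the adjusted p, 4 of them over 2-fold, and the median of the list was -0.06. Those over 2-fold included Usp18 (-1.25), Irf7 (-1.54) and Socs1 (-1.31), of which Socs1 was named after its value was seen. In Tyk2DIEC tumors 4 of the 19 were higher and 3 lower by the adjusted p, none over 2-fold. The 11 interferon genes listed were all below the low-count filter in both comparisons. These lists were drawn up with earlier results of these data known.

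Across the 17 libraries the members fell into those that varied together and those that did not. Pearson's r of log2 CPM was 0.968 for Apol9a and Apol9b, 0.965 for Apol9a and Apol10b and 0.885 for Apol6 and Apol10b. After the group means were subtracted it was 0.891, 0.859 and 0.801, so the covariation was also present within genotypes. Apol7a correlated with Apol6 at 0.853, which fell to 0.458 within genotypes. Apol7c and Apol10a had r of at most 0.524 with any other member. The values share libraries, depth and, for Apol9a and Apol9b, sequence, and they are given as a description.

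The genes whose pattern was most like that of Apol10b, Apol9a and Apol9b included many known to be induced by interferons. For Apol10b they were Irgm1 (r = 0.986), an interferon-inducible GTPase, Tap1 (0.981), the transporter that loads peptides on MHC class I, and Parp14 (0.980), out of 17251 genes compared over 17 libraries. For Apol9a they were Oasl2 (0.980), an oligoadenylate synthetase-like antiviral gene, Sp100 (0.975) and Igtp (0.973), another interferon-inducible GTPase. For Apol9b they were Apol9a (0.968), Isg15 (0.952), a ubiquitin-like modifier, and Sp100 (0.950), and for Apol6 Parp14 (0.917), 2210407C18Rik (0.911) and Ido1 (0.903), which degrades tryptophan. Apol7a was closest to Tppp3 (0.927), Dtx3l (0.924) and Bmt2 (0.911). Within genotypes Apol10b was closest to Psmb9 (0.942), Parp14 (0.942) and Psmb8 (0.936), where Psmb8 and Psmb9 are subunits of the immunoproteasome, Apol9a to Apol9b (0.891), Ddx60 (0.890) and Oasl2 (0.887), Apol9b to Apol9a (0.891), Mov10 (0.859) and Ddx60 (0.828), and Apol6 to Oasl2 (0.847), H2-D1 (0.833) and Tap2 (0.821).

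Apol7c and Apol10a resembled other genes. Apol7c was closest to Gm16206 (r = 0.804), Ighv1-9 (0.771) and Kbtbd11 (0.765), and within genotypes to Tlr12 (0.910), Lypd6 (0.833) and Ctla4 (0.825). Apol10a was closest to Cyp2c55 (0.761), Selenbp1 (0.760) and Map3k4 (0.759), and within genotypes to Wdsub1 (0.782), Zfp668 (0.773) and Slc25a38 (0.761). Apol7a within genotypes was closest to Ampd3 (0.875), Slfn4 (0.809) and Synj2 (0.805).

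**Figure D4:**
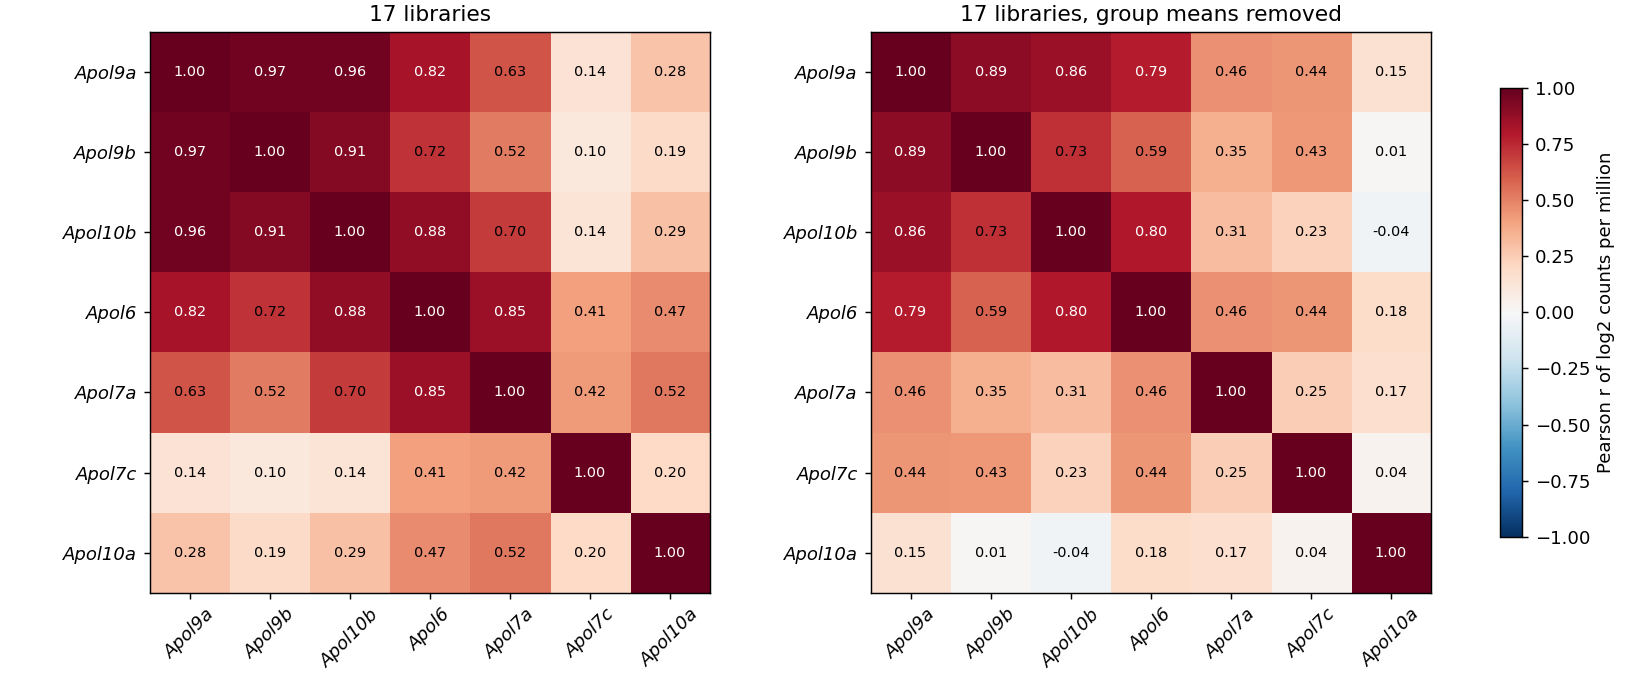
Pearson's r of log2 CPM between the 7 members that passed the low-count filter over all libraries, over 17 libraries (left) and after each genotype's mean was subtracted (right), on a colour scale from -1 to 1. Apol9a, Apol9b, Apol10b and Apol6 form a block with r of 0.723 to 0.968 on the left and 0.591 to 0.891 on the right, and Apol10a stays between -0.04 and 0.18 with the other members on the right.

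Markers of other cells also moved in both comparisons. The 8 markers of CD8 T and NK cells summed to 2.48 to 3.38 CPM in Tyk2KO tumors, against 8.91 to 15.7 CPM in Tyk2wt tumors, and all 4 that could be tested were lower, including Cd8a (-3.35 ± 0.55, adjusted p = 0.0231) and Gzma (-2.67 ± 0.51, adjusted p = 0.0376). They summed to 6.59 to 7.56 CPM in Tyk2DIEC tumors, against 3.62 to 7.58 CPM in Tyk2fl tumors, where 1 of 5 tested, Gzma, passed the adjusted p (0.74 ± 0.24, adjusted p = 0.0495). Of 7 T cell markers 3 were lower in Tyk2KO tumors (summed 10.6 to 12.7 CPM, against 20.6 to 29.6 CPM in Tyk2wt tumors), and of 6 smooth muscle markers 4 were lower (summed 103 to 168 CPM, against 229 to 412 CPM). Of 7 fibroblast markers 1 passed the adjusted p in Tyk2KO tumors, Dpt on the lower side (-1.46 ± 0.14, adjusted p = 0.00265). The median of the 7 was 0.25. Col1a1 (0.67), Col1a2 (0.50), Lum (0.43) and Col3a1 (0.25) lay above 0, Dcn (-0.37) and Pdgfra (-0.04) below it, all without passing. Of 6 neutrophil markers S100a8 (-0.87) and S100a9 (-0.92) passed the adjusted p on the lower side, under 2-fold. In Tyk2DIEC tumors the summed T cell and smooth muscle markers overlapped with those of Tyk2fl tumors. Of 7 fibroblast markers 5 passed the adjusted p on the lower side in Tyk2DIEC tumors, Lum (-1.19 ± 0.23, adjusted p = 0.00540) and, under 2-fold, Dcn, Col1a1, Col1a2 and Dpt (-0.71 to -0.63). All 7 summed to 1245 to 1566 CPM in Tyk2DIEC tumors, against 1292 to 2136 CPM in Tyk2fl tumors, so the groups overlapped. Of 5 Paneth-like markers 1 passed there, Defa17, a defensin of Paneth cells, on the lower side (-1.32 ± 0.25, adjusted p = 0.00506). Defa24 (-0.88), Pla2g2a (-0.39), Mmp7 (-0.02) and Lyz1 (-0.0037) did not pass. Of 10 macrophage and monocyte markers C1qa (-0.46) and C1qc (-0.49) passed lower, under 2-fold, and the list median was -0.31. Of 5 endothelial markers Tek (0.57) passed higher, under 2-fold, while Kdr (0.09), Cdh5 (0.09), Pecam1 (-0.15) and Emcn (-0.28) did not pass. Among epithelial markers the smallest adjusted p was 0.166 (Cdx2) in Tyk2KO and 0.176 (Epcam) in Tyk2DIEC tumors, and among dendritic cell markers it was 0.0696 (Xcr1) and 0.143 (Ccr7). None of these markers was at 0 over a whole group. Their part in the members' changes was not tested.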

How the data were processed

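RNA of 17 tumor libraries was compared by genotype as labelled. The deposited values are raw counts per gene. Per the methods and labels, the authors aligned single-end 75-base reads of directional poly(A) libraries with STAR 2.6.1a (GRCm38 in the submitters' processing notes) and let STAR count reads on Gencode mouse genes; the strand column used is not given in the sources used here. The 17 single tables were identical to the series tables.

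Per comparison, low counts were removed by filterByExpr (minimum count 10, minimum total 15), TMM factors were set, and the quasi-likelihood F test of edgeR 4.0.16 was run in R 4.3.3, adjusted by Benjamini and Hochberg over all tested genes. The difference between both changes was a contrast over 4 groups and all libraries. Printed CPM were scaled by TMM over all libraries, and log2 CPM used a prior count of 2. Alternatives were DESeq2 1.42.0, limma 3.58.1 (voom), other scalings and filters, 1 fit over all libraries, the replicate number as a block, near-identical copies summed, Tyk2fl replicates 1 to 3 left out, Tyk2fl libraries thinned, and each library left out.

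All 8 members are given in full, with the 3 genes most like each by Pearson's r over libraries and within groups, and up to 4 genes per list by adjusted p. Members, lists and tests were chosen with earlier results of these data known, and 1 listed signalling gene is not reported here. Same-numbered libraries did not deviate together (r of their deviations from the group means -0.366 to 0.069), so numbers were not taken as pairs. Positions come from GENCODE M21 (55240 of 55421 gene identifiers matched), which is not the authors' release. Promoters come from RefSeq (GRCm38.p6), with entries for 7 of 8 members.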

Additional observations from a re-analysis of the deposited data

Results flagged for a closer look

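In 3 cases a single Tyk2fl library lay far from the other 6, measured as its gap to the nearest library divided by the range of the group. Apol10a was at 2.20 CPM in replicate 2 (74 counts), against at most 0.195 CPM in the others, with a gap of 0.911 of the range. Apol7a was at 9.11 CPM in replicate 1, against at most 7.33 CPM (0.676 of the range), and Apol8 was at 0.657 CPM in replicate 7, against at most 0.312 CPM (0.577 of the range). Replicates 1 and 2 are among the Tyk2fl libraries with high Xist, and replicate 7 is not. The check ran over 16 groups, 8 members in Tyk2DIEC and Tyk2fl tumors. Its cut-offs flag about 1 in 20 by chance if values are independent and normally spread. Low CPM of genes that vary together need not follow that rate. The part of library quality or dissection in these values was not tested.

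The change in Tyk2KO tumors differed from the change in Tyk2DIEC tumors for 5 members in the contrast over all libraries (edgeR). The difference on the log2 scale was -4.48 for Apol9a, -4.02 for Apol10b, -3.80 for Apol9b, -2.87 for Apol6 and -1.64 for Apol7a. The highest adjusted p of these was 0.00201. Experiment, controls and deleted cells changed together between both comparisons and cannot be told apart.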

How the results depend on the processing

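The called members (4 lower in Tyk2KO, 4 higher in Tyk2DIEC tumors) numbered 2 to 4 in both comparisons when single libraries were left out, and 5 members differed between the changes in every such fit. Over all genes, the 210 called in Tyk2KO became 362 with no low-count filter, 453 with no fold minimum and 96 to 240 without single libraries. The 551 called in Tyk2DIEC became 307 with a stricter filter, 3515 with no fold minimum and 373 to 600 without single libraries. The 1374 whose changes differed became 868 with no filter and 584 to 1690 without single libraries. The sign of Apol7c turned without single libraries in Tyk2KO (-0.66 to 0.16), in Tyk2DIEC (-0.16 to 0.37) and in the difference (-0.83 to 0.067), and that of Apol10a in Tyk2KO (-1.09 to 0.27). The cause was not tested. The order of genotypes by level was the same for all 8 members with TMM within each experiment.

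With the replicate number as a block, 224 genes were called in Tyk2DIEC tumors and 901 differed between the changes. Both fits kept only replicate numbers found in Tyk2DIEC and Tyk2fl tumors, so Tyk2fl replicates 5, 6 and 7 were left out. The block and the missing libraries cannot be told apart in these counts. Apol7a (-0.78, adjusted p = 0.0633) and Apol9b (-2.66, 0.0690) in Tyk2KO and Apol10b (1.40, 0.0676) in Tyk2DIEC tumors then had an adjusted p above 0.05, where Apol7a had been under 2-fold and so not among the called members. No other member crossed that threshold. The libraries share only a number.

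Apol10a and Apol8 had 0 to 26 counts per library in all but Tyk2fl replicate 2, and the change detectable at such counts was not tested. With 3 libraries a group, 1 library decided several calls. Reads over whole genes do not separate isoforms, and tumors hold several cell types.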
